A study of Mus with 35 samples.

Results

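The PP2C phosphatases of the PPM1 family are monomeric serine/threonine phosphatases that need magnesium or manganese ions. Unlike the PPP phosphatases, they work as single subunits without regulatory partners. In the brain the members act on stress kinases, on PAK and calmodulin-dependent kinases, on Rab GTPases and on mitochondrial amino acid breakdown. The 10 genes described here (Ppm1a, Ppm1b, Ppm1d, Ppm1e, Ppm1f, Ppm1g, Ppm1h, Ppm1j, Ppm1k and Ppm1l) were chosen by symbol from the 55573 rows of the deposited table. The family was picked because Ppm1a was already known to be higher in mutants than in WT with the control ASO, and to differ with the Hnrnph2 ASO. The mutation and ASO values of Ppm1a, and the mutation effect with the control ASO for every member, are therefore given as a description with no test. All 10 members were among the 16556 genes that averaged 1 TPM or more and were tested. TPM, the transcript abundance unit used throughout, is scaled per transcript length and to 1 common total per library.

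The libraries came from brains of male C57BL/6J mice that were hemizygous for P209L or R206W in Hnrnph2, an X-linked gene for an RNA-binding protein, or were WT littermates. Every mouse, WT included, had been given 30 µg of an antisense oligonucleotide (ASO) once into the cerebral ventricles at postnatal day 2 to 4, either an Hnrnph2 ASO or a control ASO. The 35 libraries form 12 groups in 3 cohorts: P209L and WT at 8 weeks, P209L and WT at 3 weeks, and R206W and WT at 3 weeks, each genotype with each ASO. There were n = 3 libraries per group, and n = 2 for P209L mice that received the Hnrnph2 ASO and were collected at 3 weeks. The labels do not say that each library is a separate animal, so the p-values measure the spread between libraries, which may be technical in part.

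Hnrnph2 stood between 6.95 and 26.7 TPM in the libraries given the Hnrnph2 ASO, against 88.2 to 117 TPM in those given the control ASO, without overlap. With the Hnrnph2 ASO it was 6.95 to 11.63 TPM in P209L mutants and 11.96 to 20.57 TPM in WT at 8 weeks. At 3 weeks it was 12.76 to 15 TPM in P209L mutants and 16.38 to 19.33 TPM in WT, so neither age overlapped. The R206W cohort overlapped, with 19.45 to 23.93 TPM in mutants and 23.34 to 26.68 TPM in WT. The part of this unequal remainder in the contrasts that use this ASO was not tested. The depth behind the values is unknown, because TPM keeps no read totals; 16235 to 16649 genes reached 1 TPM in each library. The labels name both whole brain and dissected cortex. Markers of cerebellum were present in every library: the Purkinje cell gene Pcp2 ranged from 165 to 521 TPM and the granule cell gene Gabra6 from 32.4 to 155 TPM, beside 25.6 to 48.1 TPM of the cortical gene Neurod6. Among WT control libraries at 8 weeks, replicate 2 held the lowest value of 7 of the 10 members and replicate 3 the highest of 8. Their summed neuron markers also differed, with 3222 TPM in replicate 2, 3648 TPM in replicate 1 and 4336 TPM in replicate 3. The part of that difference in the values below was not tested.

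Ppm1a was the most abundant member in all 35 libraries and alone made up 28.5% to 42.3% of the summed TPM of the 10 members. Its level ran from 124.67 to 276.36 TPM, with a median of 171.38. Ppm1b followed with a median of 81.4 TPM (67.7 to 102), then Ppm1e with 72.5 (51.8 to 99.3) and Ppm1g with 55.6 (49.5 to 64.9). The middle of the order was held by Ppm1l with a median of 38.7 TPM, Ppm1f with 29.0, Ppm1h with 27.9 and Ppm1k with 24.2. Ppm1d had a median of 15.2 TPM (10.6 to 20.7) and Ppm1j, the lowest, 3.03 (1.57 to 5.84). Ppm1b stood above Ppm1e in 27 of 35 libraries and Ppm1f above Ppm1h in 24, so these neighbours exchanged places. The other neighbours kept their order in 30 to 35 libraries.

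**Figure D1:**
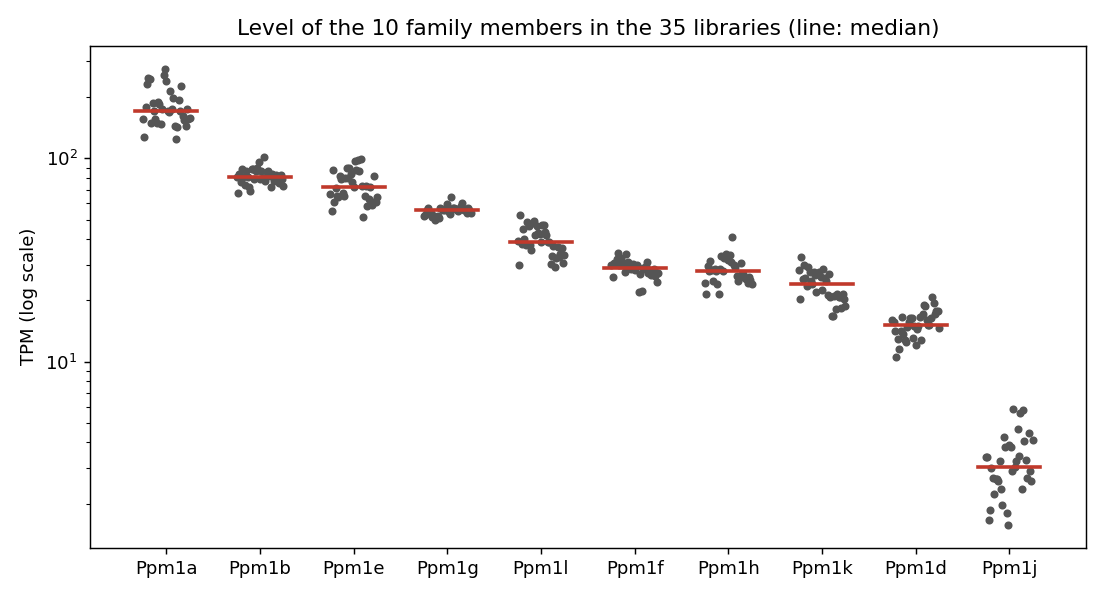
TPM of each of the 10 members (log scale) in the 35 libraries, 1 point per library, with the median as a line. Ppm1a lies above every other member in all libraries and Ppm1j lies lowest, at 1.57 to 5.84 TPM.

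Ppm1a (Entrez gene 19042; mm10, chromosome 12, 72761211 to 72799819) encodes PP2C alpha, which dephosphorylates receptor-activated SMAD proteins and stress-activated kinases. With the control ASO it was higher in mutants than in WT in every cohort. In the P209L cohort at 8 weeks it had 232.92, 249.12 and 245.57 TPM in mutants, against 155.69, 127.24 and 178.93 TPM in WT. At 3 weeks it had 256.69, 276.36 and 240.57 TPM in P209L mutants, against 184.51, 147.28 and 174.25 TPM in WT. In the R206W cohort it had 194.28, 171.38 and 226.9 TPM in mutants, against 145.17, 124.67 and 143.55 TPM in WT. All mutant libraries lay above all WT libraries in 3 of 3 cohorts, a pattern that 0.991% of all tested genes had in the same direction. This share is given for scale only, since the same values led to the choice of the family. For the other statements on overlap below, the share over all genes was not counted, so they are descriptions only. The difference in mean TPM was 57.5% in P209L mutants at 8 weeks, 52.9% at 3 weeks and 43.3% in R206W mutants. On the log2(TPM + 1) scale the average over the cohorts was 0.60 (SE 0.0699, 95% interval 0.45 to 0.74).

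With the Hnrnph2 ASO, mutants and WT overlapped in every cohort; these values too are a description, since the ASO response of Ppm1a was known. At 8 weeks Ppm1a had 155.87, 150.09 and 189.27 TPM in P209L mutants, against 148.87, 186.72 and 171.36 TPM in WT. At 3 weeks it had 175.01 and 197.77 TPM in P209L mutants, against 170.9, 168.66 and 215.23 TPM in WT. R206W mutants had 174.12, 156.41 and 158.26 TPM, against 162.53, 155.16 and 143.88 TPM in WT. The average log2 fold change was 0.02 (SE 0.0727), with a 95% interval from -0.13 to 0.17. In percent of TPM + 1 the interval ran from -8.47% to 12.6%.

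Set by ASO within genotype, Ppm1a was lower with the Hnrnph2 ASO in mutants, and these values are again a description. Its mean in P209L mutants at 8 weeks was 165 TPM with the Hnrnph2 ASO and 242.5 TPM with the control ASO, and at 3 weeks 186 TPM with the Hnrnph2 ASO and 258 TPM with the control ASO. In R206W mutants it was 163 TPM with the Hnrnph2 ASO and 197.5 TPM with the control ASO. These means differ by -31.9%, -27.7% and -17.5%, and the libraries did not overlap in the P209L cohorts but did in the R206W cohort. In the R206W cohort the library names carried 2 stems among the 6 libraries with the Hnrnph2 ASO and 2 others among the 6 with the control ASO. The labels do not say what a stem marks, and stem and ASO cannot be told apart there. This limit holds for every R206W comparison by ASO below, for the other members as well. In the P209L cohorts stems were seldom shared by any libraries. At 8 weeks there were 6 stems among 6 libraries with the Hnrnph2 ASO and 5 among 6 with the control ASO. At 3 weeks there were 4 among 5 and 5 among 6. That 0 stems occurred with both ASOs there says little for this reason. All 8 mutant libraries with the Hnrnph2 ASO lay below their cohort's control mean. In WT, 8 of 9 libraries with the Hnrnph2 ASO lay above it, with an average log2 difference of 0.14 (SE 0.0699). The ASO effect in mutants (-0.43) minus that in WT was -0.57 (SE 0.101). These comparisons share the control groups with the mutation effect above. Beside WT with the control ASO, mutants with the Hnrnph2 ASO stood at 1.07, 1.1 and 1.18 times the mean TPM in the cohorts P209L 8 weeks, P209L 3 weeks and R206W, while mutants with the control ASO stood at 1.58, 1.53 and 1.43 times.

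**Figure D2:**
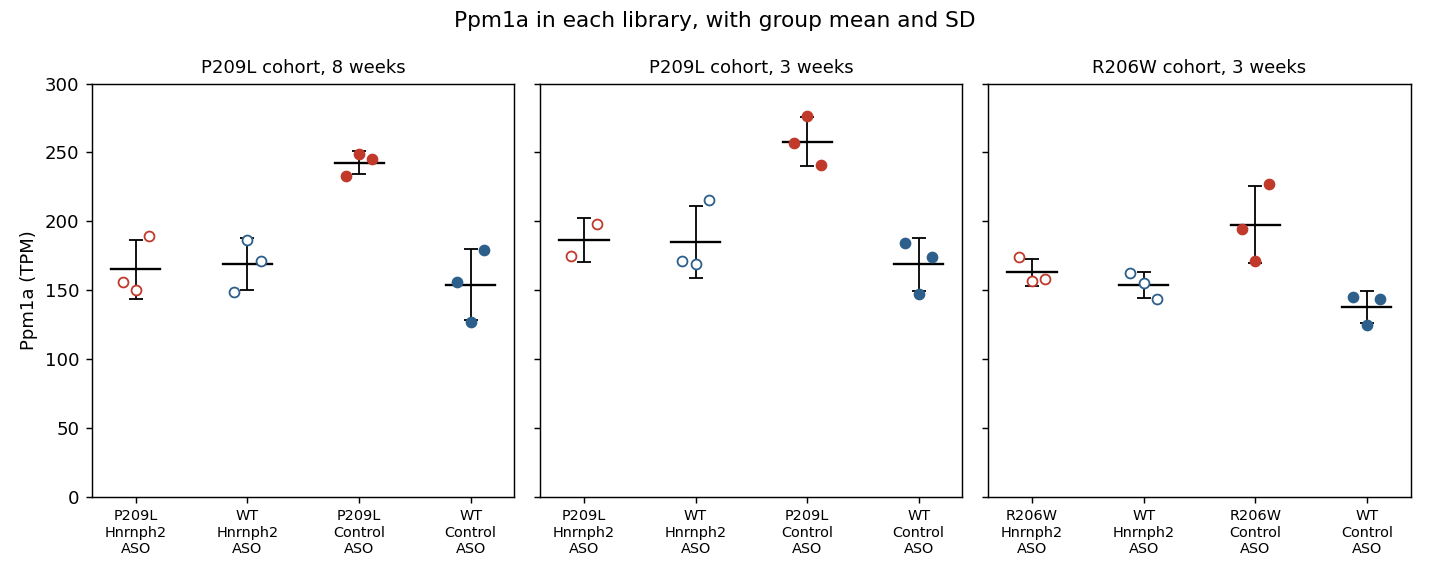
Ppm1a in TPM in each library of the 3 cohorts, 1 point per library, with the group mean and SD (open points Hnrnph2 ASO, filled points control ASO, red mutants, blue WT). Mutants with the control ASO stand above the WT libraries with the control ASO in each cohort, and mutants and WT overlap with the Hnrnph2 ASO.

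The other 9 members differed less between mutants and WT with the control ASO. The summed TPM of the 10 members averaged 589 ± 28.1 in P209L mutants and 495 ± 74.2 in WT at 8 weeks (SD, n = 3 each). Without Ppm1a the sum was 347 ± 20.2 TPM in P209L mutants and 341 ± 48.3 TPM in WT at 8 weeks. At 3 weeks it was 368 ± 16.9 TPM in P209L mutants and 378 ± 19 TPM in WT, and in the R206W cohort 334 ± 17.4 TPM in mutants and 329 ± 22.4 TPM in WT (SD, n = 3 each). The average log2 fold changes of the other members lay between -0.27 for Ppm1d and 0.14 for Ppm1h, and 6 of the 10 members were above 0. The median over the 10 was 0.041, beside 0.0066 over all tested genes.

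In these bulk samples fewer cells of a type and less RNA per cell cannot be told apart. Markers of cerebellar granule cells (Gabra6, Cbln3, Cbln1 and Zic1) were lower in mutants in the same contrast, with a median log2 fold change of -0.40. Their summed level was 355 to 412 TPM in P209L mutants and 350 to 469 TPM in WT at 8 weeks, and 348 to 403 TPM in P209L mutants and 424 to 460 TPM in WT at 3 weeks. In the R206W cohort it was 418 to 500 TPM in mutants and 534 to 725 TPM in WT. Erythrocyte markers had a median of -0.34 and pericyte markers of -0.19 in this contrast. The summed pericyte markers were 106 to 118 TPM in P209L mutants and 131 to 150 TPM in WT at 3 weeks, and 113 to 126 TPM in R206W mutants and 145 to 150 TPM in WT, without overlap. At 8 weeks they overlapped, with 125 to 138 TPM in P209L mutants and 123 to 134 TPM in WT. The part of erythrocyte and pericyte markers in the members' values was not tested. With the mean log2(TPM + 1) of the granule cell markers as a covariate (the cerebellar covariate), the Ppm1a difference was 0.58, against 0.60 without.

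Ppm1d (mm10, chromosome 11, 85311254 to 85347071) encodes WIP1, a p53-induced phosphatase that switches off ATM, checkpoint kinase and p53 signalling after DNA damage. Among the members it ran furthest below 0 with the control ASO. At 8 weeks it had 10.58, 12.89 and 11.59 TPM in P209L mutants, against 16.1, 15.6 and 14.1 TPM in WT. At 3 weeks it had 13.06, 15.03 and 12.05 TPM in P209L mutants, against 15.62, 16.42 and 16.3 TPM in WT. R206W mutants had 15.15, 15.05 and 16.39 TPM, against 18.98, 18.85 and 16.06 TPM in WT. All mutant libraries lay below all WT libraries in the P209L cohorts, and the R206W cohort overlapped. The average log2 fold change was -0.27 (SE 0.0606), and -0.12 with the cerebellar covariate; the part of the granule cell markers in this difference was not tested further. With the Hnrnph2 ASO the mutation effect on Ppm1d was -0.12 (SE 0.0631, limma adjusted p 0.45, exact permutation p 0.114), and 0.017 with the covariate. Exact permutation p-values here and below are not adjusted for the number of tests.

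Ppm1h (mm10, chromosome 10, 122677428 to 122945795) encodes a phosphatase that reverses the phosphorylation of Rab GTPases by the kinase LRRK2. With the control ASO it had 27.89, 31.25 and 28.32 TPM in P209L mutants, against 24.39, 21.47 and 29.49 TPM in WT at 8 weeks, which overlap. At 3 weeks it had 33.87, 32.98 and 31.7 TPM in P209L mutants, against 33.11, 27.81 and 32.19 TPM in WT, which overlap as well. R206W mutants had 30.59, 26.86 and 27.03 TPM, against 26.32, 24.92 and 25.83 TPM in WT, without overlap. The average log2 fold change was 0.14 (SE 0.0586). With the Hnrnph2 ASO it had the opposite sign, -0.13 (SE 0.061, limma p 0.0481, adjusted p 0.395).

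Ppm1j (chromosome 3, 104780952 to 104786023), a close relative of Ppm1h, varied most for its level, by 3.72 times between its lowest and highest library. Its average was -0.21 (SE 0.156) with the control ASO, and mutants and WT overlapped in each cohort.

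The remaining members lay between -0.06 and 0.06 with the control ASO. Ppm1b (chromosome 17, 84956741 to 85023992) encodes PP2C beta, which acts on TAK1 and on the kinase IKK beta, and had 0.06 (SE 0.0577). Ppm1l (chromosome 3, 69316918 to 69560798) encodes a phosphatase of the endoplasmic reticulum membrane that acts on stress kinases and on a ceramide transport protein, and had -0.05 (SE 0.0807). Ppm1e (chromosome 11, 87226906 to 87358994) and Ppm1f (chromosome 16, 16896469 to 16927375) encode POPX1 and POPX2, which dephosphorylate PAK and calmodulin-dependent kinases. Ppm1e had -0.06 (SE 0.0823) and Ppm1f 0.04 (SE 0.0521). Ppm1g (chromosome 5, 31202668 to 31220545), a nuclear member with an acidic insert that takes part in splicing and chromatin steps, had 0.04 (SE 0.0296). Ppm1k (chromosome 6, 57506502 to 57535552), the mitochondrial phosphatase that activates branched-chain keto acid dehydrogenase, had 0.06 (SE 0.0745). Ppm1e overlaps the coding gene Trim37 in the RefSeq annotation, and Ppm1b, Ppm1h, Ppm1k and Ppm1l overlap non-coding genes or pseudogenes; the strand setting of the counting is not given in the sources used here, so reads of such pairs may have been shared.

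With the Hnrnph2 ASO in both genotypes, limma called 0 of the other 9 members between mutants and WT, where 0.67% of all genes were called. Ppm1h alone had an unadjusted p under 0.05, and exact permutation tests gave 0 members under 0.05. The median over all 10 members was -0.072, beside -0.0093 over all genes. In this contrast 2 of the 4 granule cell markers fell in mutants, Cbln3 by 0.52 (SE 0.094, adjusted p 0.00956) and Gabra6 by 0.50 (SE 0.112, adjusted p 0.034) on the log2 scale. The Gabra6 call ended in 13 alternative fits and the Cbln3 call in 3. These include the fit with the cerebellar covariate, which is built from the same 4 markers and so cannot judge their calls. Outside that fit the limma adjusted p reached 0.294 for Gabra6 and 0.0862 for Cbln3, both with WT at 3 weeks pooled.

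**Figure D3:**
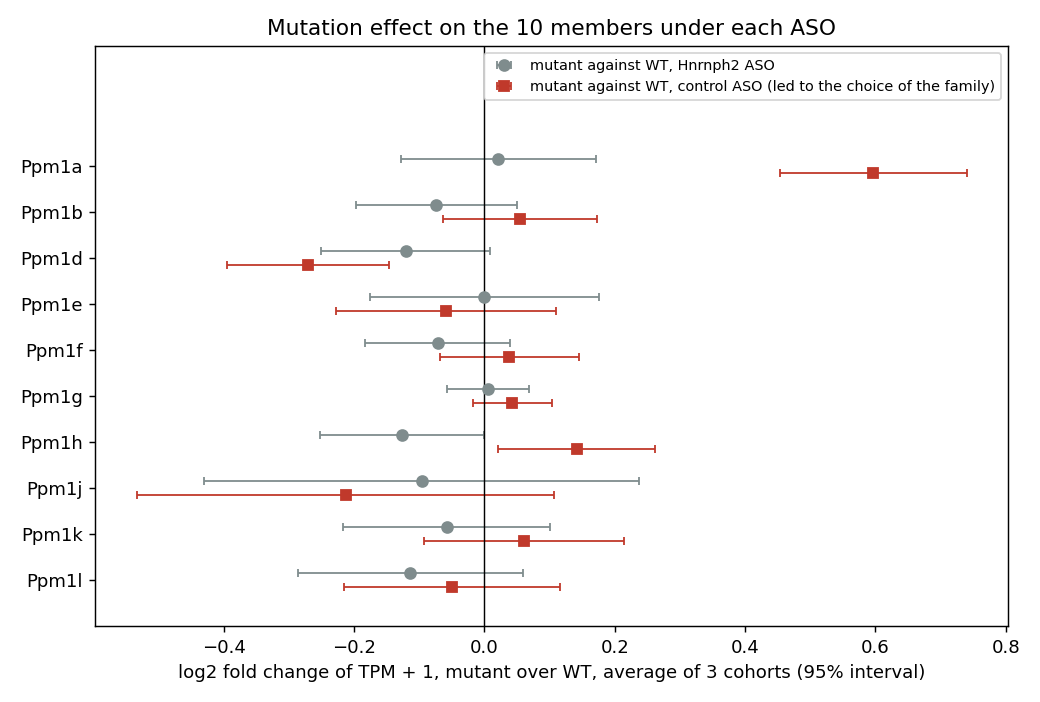
Average log2 fold change of TPM + 1, mutant over WT, for the 10 members with the Hnrnph2 ASO (grey) and with the control ASO (red), with 95% intervals from limma. Ppm1a stands at 0.02 with the Hnrnph2 ASO and at 0.60 with the control ASO, and the control ASO contrast is the one that led to the choice of the family.

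The effect of the Hnrnph2 ASO on the other 9 members was tested in each genotype. In WT mice limma called 0 of 9, where 0.187% of all genes were called. No member had an unadjusted p under 0.05 in WT (0 by limma and 0 by exact permutation tests), and the values lay between -0.05 for Ppm1j and 0.09 for Ppm1e. In mutants 0 of 9 were called, where 2.5% of all genes were called. By limma 3 members had an unadjusted p under 0.05 in mutants: Ppm1h, Ppm1f and Ppm1d.

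Ppm1h had the smallest p of these. In P209L mutants at 8 weeks it had 24, 21.55 and 28.55 TPM with the Hnrnph2 ASO, against 27.89, 31.25 and 28.32 TPM with the control ASO. At 3 weeks P209L mutants had 30.02 and 29.15 TPM with the Hnrnph2 ASO, against 33.87, 32.98 and 31.7 TPM with the control ASO. R206W mutants had 26.07, 25.24 and 24 TPM with the Hnrnph2 ASO, against 30.59, 26.86 and 27.03 TPM with the control ASO. The groups did not overlap in the cohorts collected at 3 weeks and overlapped at 8 weeks. How many of all genes showed such a pattern was not counted. The average log2 fold change was -0.18 (SE 0.061, limma p 0.00641, adjusted p 0.128; exact permutation p 0.001). Without replicate 3 of P209L with the Hnrnph2 ASO at 8 weeks the limma adjusted p was 0.0464, and after rescaling by size factors 0.0335. These were the only 2 alternative fits in which Ppm1h passed, and in all others it stayed uncalled.

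Ppm1f had -0.15 in mutants (SE 0.0542, limma p 0.0116, adjusted p 0.177, unadjusted exact permutation p 0.0123). Its R206W libraries had 26.27, 24.66 and 27.26 TPM with the Hnrnph2 ASO, against 30.73, 27.43 and 27.73 TPM with the control ASO, without overlap. P209L mutants at 3 weeks did not overlap either, with 27.07 and 22.24 TPM against 29.01, 30.37 and 28.21 TPM. At 8 weeks the P209L groups overlapped. Ppm1d had 0.14 (SE 0.0631, limma adjusted p 0.319; exact permutation p 0.0755). Its mutant means were 13.4, 14.9 and 16.7 TPM with the Hnrnph2 ASO in the cohorts P209L 8 weeks, P209L 3 weeks and R206W, against 11.7, 13.4 and 15.5 TPM with the control ASO. Ppm1g had -0.06 (SE 0.0309, limma p 0.0821, adjusted p 0.447, unadjusted exact permutation p 0.016). Its groups did not overlap in P209L mutants at 8 weeks and in R206W mutants, and overlapped in P209L mutants at 3 weeks. WT groups at 8 weeks did not overlap either, at 49.53 to 51.77 TPM with the Hnrnph2 ASO and 52.01 to 55.45 TPM with the control ASO. How many of all genes separate in this way was not counted. Ppm1e had 0.15 (SE 0.0856, limma adjusted p 0.475), with the P209L groups at 3 weeks not overlapping, at 86.5 and 99.3 TPM with the Hnrnph2 ASO and 84.0, 76.1 and 72.5 TPM with the control ASO.

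The difference of the ASO effect between mutants and WT was called for 0 of 9 members, where 0.302% of all genes were called. By limma 1 member, Ppm1h, had an unadjusted p under 0.05 for this difference (-0.27, SE 0.0846, p 0.00382, adjusted p 0.325).

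**Figure D4:**
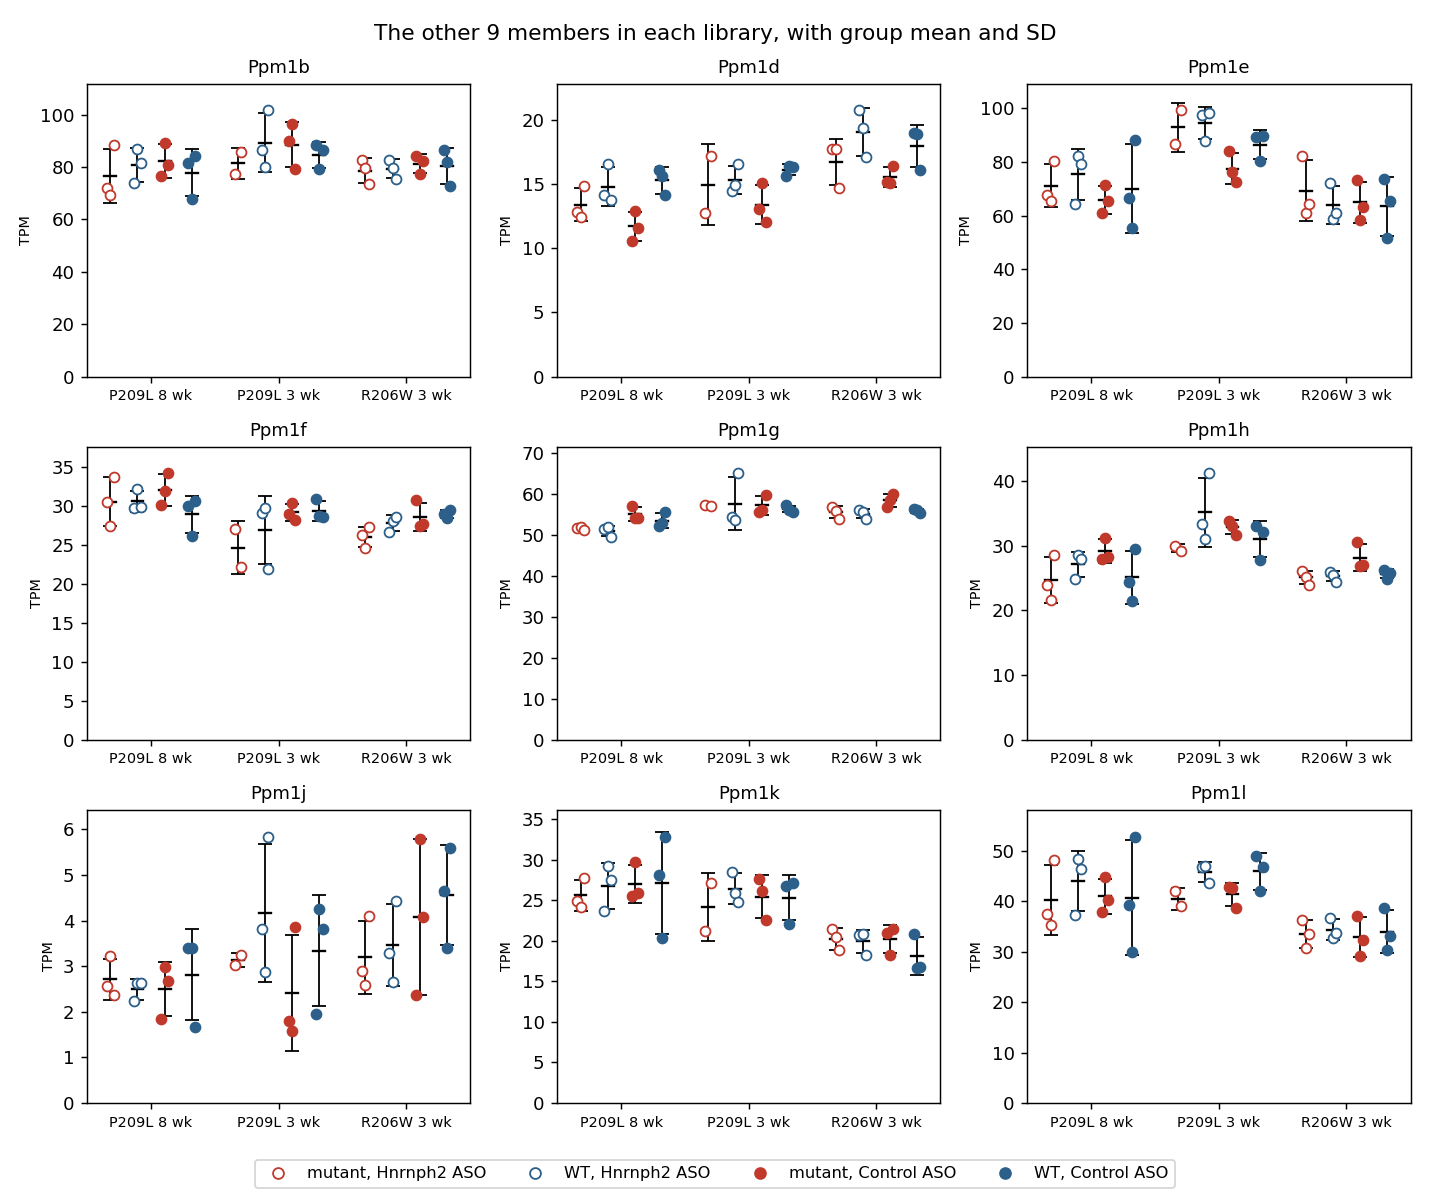
TPM of the other 9 members in each library of the 3 cohorts, with the group mean and SD (open points Hnrnph2 ASO, filled points control ASO, red mutants, blue WT). Mutants with the control ASO lie below WT with the control ASO for Ppm1d in the P209L cohorts, and the groups of most other members overlap.

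Each cohort fitted alone gave 0 calls among 81 tests of the 9 members other than Ppm1a in 9 contrasts by limma, with 2 unadjusted p under 0.05: Ppm1h in R206W mutants (p 0.0286) and Ppm1e in P209L mutants at 3 weeks, both for the ASO. Few genes were called in these fits. For the mutation with the Hnrnph2 ASO they were 0% of all genes in the P209L cohort at 8 weeks, 0% at 3 weeks and 0.00606% in the R206W cohort. For the ASO in WT they were 0.0182%, 0.0121% and 0.0121% in the same order of cohorts, and for the ASO in mutants 0.0908%, 0.0969% and 0.097%.

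Age was compared within the P209L cohorts, over both genotypes and both ASOs, as 8 weeks minus 3 weeks. Age and collection cohort cannot be told apart here. Ppm1e, Ppm1h and Ppm1g fell and Ppm1f rose at 8 weeks. These 4 of 10 calls compare with 42.1% of all genes called, and by direction 1 of 10 rose, beside 15.5% of all genes, and 3 of 10 fell, beside 26.6%. The share of members called was thus near that of all genes.

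Ppm1e had 55.3 to 88.2 TPM in the 8-week libraries, against 72.5 to 99.3 TPM in the 3-week libraries. Its log2 fold change was -0.32 (SE 0.0735, limma adjusted p 0.00103; exact permutation p 0.000225), and 3 of 4 matched group pairs did not overlap. Ppm1h ranged from 21.5 to 31.3 TPM at 8 weeks, against 27.8 to 41.2 TPM at 3 weeks. Its log2 fold change was -0.27 (SE 0.0523, limma adjusted p 0.000151, exact permutation p 0.0003), with 3 of 4 group pairs not overlapping. The share of all genes with as many separate group pairs between the ages was not counted.

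Ppm1g ranged from 49.5 to 56.9 TPM at 8 weeks, against 53.6 to 64.9 TPM at 3 weeks, a narrow shift of -0.11 (SE 0.0265, limma adjusted p 0.00147; exact permutation p 8.75e-05). After rescaling by size factors it was -0.0665 (adjusted p 0.0471). Ppm1f was the member that rose, with 26.2 to 34.2 TPM at 8 weeks, against 21.96 to 30.9 TPM at 3 weeks. Its log2 fold change was 0.15 (SE 0.0465, limma adjusted p 0.0113; exact permutation p 0.016). Without replicate 2 of P209L with the Hnrnph2 ASO at 3 weeks, which had 22.2 TPM, it was 0.115 and no longer passed (adjusted p 0.062).

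Ppm1a had -0.13 (SE 0.0624, limma adjusted p 0.0893), Ppm1b -0.12 (adjusted p 0.0734) and Ppm1d -0.11 (adjusted p 0.102), and none of these passed. Markers of other cells moved with age in the same libraries. All 3 erythrocyte markers (Hba-a1, Hbb-bs and Alas2) fell at 8 weeks, with a median log2 fold change of -0.74, and both oligodendrocyte precursor markers (Pdgfra and Cspg4) fell, with a median of -0.49. All 3 choroid plexus markers (Ttr, Folr1 and Kl) rose, with a median of 0.67. Among 6 neuron markers 1 rose and 2 fell, and among 4 microglia markers 2 fell. The part of these markers in the age values of the members was not tested.

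**Figure D5:**
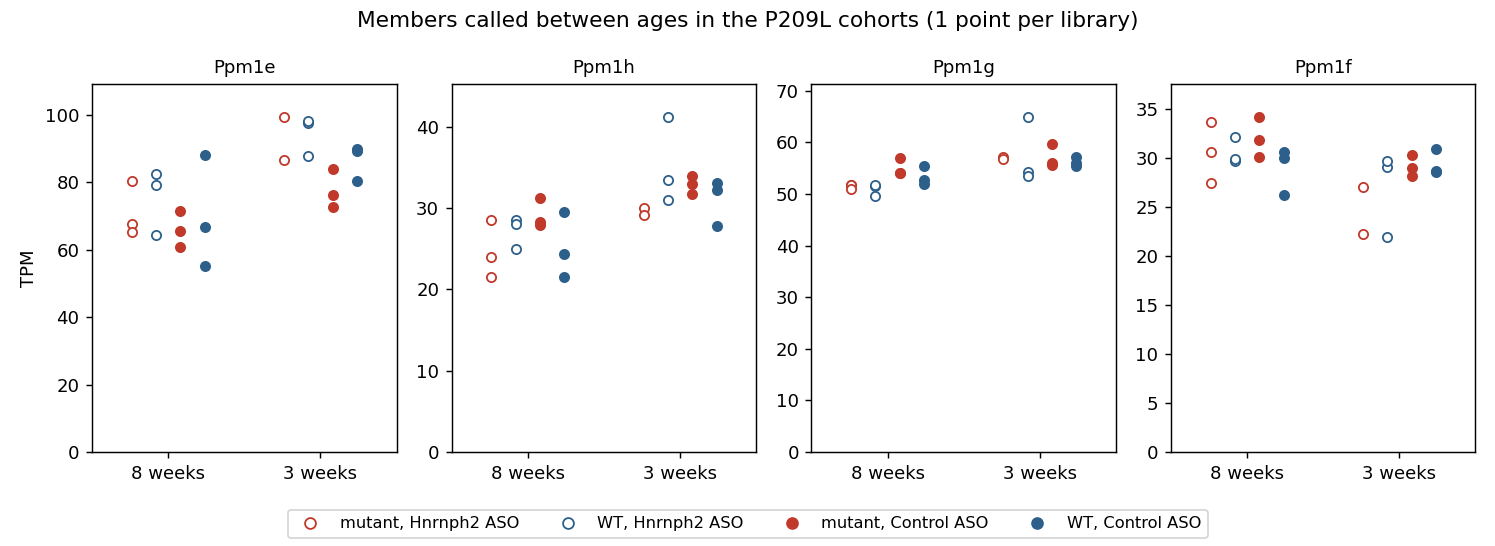
TPM of the 4 members called between ages in the P209L cohorts, 1 point per library, 8 weeks left of 3 weeks (open points Hnrnph2 ASO, filled points control ASO, red mutants, blue WT). Ppm1e, Ppm1h and Ppm1g sit lower at 8 weeks, and Ppm1f sits higher, with overlap between the ages.

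Relatives of the family and genes of the pathways it acts on were followed in 7 lists. Among the PPP catalytic subunits, the other large class of serine/threonine phosphatases, 1 of 11 tested genes fell with the Hnrnph2 ASO in mutants. It was Ppp1cb, a catalytic subunit of protein phosphatase 1, with a mean of 141 TPM with the Hnrnph2 ASO and 201 TPM with the control ASO in P209L mutants at 8 weeks (average log2 fold change -0.41, SE 0.0484, limma adjusted p 3.17e-06). Ppp1cb had 0.01 in WT (SE 0.0465), and the difference between genotypes was -0.42 (SE 0.0671, limma adjusted p 0.00111). The list that holds Ppp1cb was chosen with earlier results of these data known, so these p-values are not independent support. Among 15 genes of p53 and DNA damage signalling, the pathway that WIP1 restrains, 1 fell in mutants with the ASO. It was Sesn2, a stress-induced p53 target (-0.19, SE 0.0453, limma adjusted p 0.0222), and its call ended without any of 3 single libraries (adjusted p up to 0.101), namely replicate 2 of each mutant group with the Hnrnph2 ASO.

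By limma 0 genes were called in the other 5 lists in the ASO contrasts, in any of the 7 lists for the ASO in WT, or for the mutation with the Hnrnph2 ASO. These lists hold other PP2C genes (8 tested), SMAD and stress kinase substrates (19), PAK, PIX and calmodulin-dependent kinases (15) and branched-chain amino acid breakdown (14). The last of them holds Lrrk1 and Lrrk2 with Rab genes, Rilpl1 and Rilpl2 (12). Between 0 and 3 genes of a list had an unadjusted p under 0.05 in these contrasts.

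With age every list had calls, as 42.1% of all genes did (15.5% rose and 26.6% fell), and the counts below are read as a description beside those shares. Among other PP2C genes 2 of 8 rose and 1 fell, with Ilkap at 0.16 (adjusted p 0.00559), Ppm1m at 0.15 (adjusted p 0.0152) and Tab1 at -0.12 (adjusted p 0.00976). Ppm1m, the third relative of the Ppm1h group, stood at 18.7 to 28.4 TPM. The Tab1 call ended after rescaling by size factors (-0.0782, adjusted p 0.135).

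Of the PPP catalytic subunits 6 of 11 fell, with Ppp2ca at -0.16, Ppp3cb at -0.23 and Ppp3cc at -0.17. Among SMAD and stress kinase genes 1 of 19 rose (Mapk11, a p38 kinase, 0.36) and 5 fell, with Cdk2 at -0.31 and Smad1 at -0.23. Among PAK, PIX and calmodulin-dependent kinase genes 3 of 15 rose and 4 fell. Arhgef7, which encodes the PAK partner beta-PIX, had -0.39 (limma adjusted p 5.4e-09), Camk1g -0.35 and Camk2b -0.17.

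Among p53 genes 1 of 15 rose (Ccng1, 0.26) and 3 fell, with the cell-cycle inhibitor Cdkn1a at -0.93 (adjusted p 9.54e-06) and Bbc3 at -0.40. In branched-chain amino acid breakdown 3 of 14 rose, with Hibch at 0.25 and Hibadh at 0.14, and 1 fell, Dbt, a subunit of the complex that the Ppm1k product activates (-0.38, adjusted p 6.43e-05). Of the Lrrk, Rab and Rilpl genes 4 of 12 rose and 5 fell, with Rab3a at -0.20, Rilpl2 at -0.21 and Rab10 at -0.22.

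The genes whose levels ran most like Ppm1a were found by Pearson correlation of log2(TPM + 1) over the 35 libraries after subtraction of cohort means. They were Zfp91 (r 0.958, Spearman's rho 0.952), a zinc finger ubiquitin ligase, Paip2b (0.934 and 0.9), a translational repressor that binds poly(A)-binding protein, and Ppp1cb (0.928 and 0.901). Pip4k2b (0.911 and 0.843), a phosphoinositide kinase, and Galnt16 (0.91 and 0.9), a glycosyltransferase, followed. These values describe libraries that share their groups and normalization, and carry no test. Zfp91 averaged 75.2 TPM in P209L mutants and 56.7 TPM in WT at 8 weeks with the control ASO, and 55.2 TPM in mutants and 58.8 TPM in WT with the Hnrnph2 ASO. Paip2b averaged 58.7 TPM in mutants and 39.4 TPM in WT with the control ASO in that cohort, and 40.2 TPM in mutants and 42.1 TPM in WT with the Hnrnph2 ASO. Galnt16 averaged 70.6 TPM in mutants and 69.2 TPM in WT with the Hnrnph2 ASO in that cohort. With the same ASO it stood higher in mutants in the P209L cohort at 3 weeks, at 99.3 TPM against 77.3 TPM in WT. In the R206W cohort it had 71.6 TPM in mutants and 62.6 TPM in WT with that ASO.

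Among the members themselves, Ppm1h (0.65) and Ppm1b (0.54) had the highest correlation with Ppm1a by the same measure, and Ppm1d the lowest (-0.45). After subtraction of group means in place of cohort means, Ppm1b had 0.80, Ppm1h 0.80, Ppm1e 0.76, Ppm1k 0.73 and Ppm1l 0.71. Libraries of the same group that were high in Ppm1a thus tended to be high in these members. Ppm1d (0.42) and Ppm1g (0.39) followed less closely, while Ppm1f (0.087) and Ppm1j (-0.21) did not follow. These correlations rest on n = 35 libraries and are a description.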

How the data were processed

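The authors deposited 1 table of TPM with 35 library columns, made from stranded total RNA libraries; the tools listed in the submitters' processing notes are RSEM, STAR 2.7.1a, Trim Galore and GATK 4.0.4.0, with mm10 as the build and no annotation or strand setting. TPM keeps no read totals, so depth is unknown and count tests were not used. Groups came from the labels; the cohort of WT at 3 weeks was read from the number series of their library names. Of 595 library pairs 0 were identical.

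Genes averaging 1 TPM or more were fitted on log2(TPM + 1) with 1 mean per group in limma 3.58.1 (R 4.3.3; two-sided tests, trended eBayes after lmFit and contrasts.fit), averaging over cohorts, with Benjamini-Hochberg adjustment over all 16556 genes within a contrast and calls at an adjusted p under 0.05. Fold changes of low genes are understated by the pseudocount of 1. Single members were also tested by exact permutation within cohorts (Python 3.11.15), with no adjustment of these p-values. The fit was tested on simulated data. Members, the 7 gene lists and the markers were chosen with earlier results of these data known. Named were all members, Hnrnph2, up to 3 called genes with the smallest p per list and contrast, and the 5 genes most correlated with Ppm1a. Coordinates came from a RefSeq table (GRCm38.p6, the build equal to mm10), in which all 10 members matched. Alternatives were a pseudocount of 0.1, no filter, rescaling by size factors, a cerebellar covariate, a replicate block, the compared groups alone, pooled WT at 3 weeks, and leaving out each library. Some marker results are not reported here.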

Additional observations from a re-analysis of the deposited data

Results flagged for a closer look

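Ppp1cb, a catalytic subunit of protein phosphatase 1, differed between genotypes in its response to the Hnrnph2 ASO: the log2 effect in mutants minus that in WT was -0.42 (limma adjusted p 0.00111). Its mean TPM in mutants was 141, 157 and 140 with the Hnrnph2 ASO in the cohorts P209L 8 weeks, P209L 3 weeks and R206W, against 201, 207 and 176 with the control ASO. In WT it was 143, 150 and 131 TPM with the Hnrnph2 ASO, against 141, 143 and 136 TPM with the control ASO. The difference uses the control ASO groups, in which mutants stood above WT. The list that holds Ppp1cb was chosen with earlier results of these data known. The p-value is therefore not independent support. With groups of at most 3 libraries, single libraries were not screened as outliers.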

How the results depend on the processing

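Outside age, 1485 of 1527 values of members under an alternative kept their direction and their side of the threshold, 40 turned sign and 2 passed newly; for age 398 of 410 did, 11 passed newly and 1 was lost. The count of members called for the ASO in mutants was 1 after rescaling (Ppm1h), and 0 to 1 when single libraries were left out. For the mutation with the Hnrnph2 ASO, Ppm1e had 1.6e-05 with a pseudocount of 0.1, 0.0102 after rescaling and 0.00106 with the replicate block, and with the cerebellar covariate Ppm1d had 0.0172, against -0.121 without it, and Ppm1g -0.0149. With the covariate Ppm1d had 0.0119 for the ASO in WT, and its difference between mutants and WT with the control ASO was -0.122. With single libraries left out, the mutation effect with the Hnrnph2 ASO ranged from -0.0122 to 0.0595 for Ppm1a, -0.043 to 0.0327 for Ppm1e and -0.0105 to 0.035 for Ppm1g. The ASO effect in WT ranged from -0.0379 to 0.0123 for Ppm1d, -0.0624 to 0.00785 for Ppm1f, -0.135 to 0.0124 for Ppm1j and -0.0111 to 0.121 for Ppm1l. In mutants it ranged from -0.023 to 0.162 for Ppm1j, -0.108 to 0.00628 for Ppm1k and -0.0541 to 0.0195 for Ppm1l, and the difference between genotypes from -0.131 to 0.00124 for Ppm1l. The cause was not tested. The age count was 3 to 6 with single libraries left out; Ppm1a and Ppm1b passed without replicate 3 of WT with the control ASO at 8 weeks (adjusted p 0.0328 and 0.0448), and Ppm1b and Ppm1d passed with the covariate (0.0407 and 0.0113).

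The number of all genes called moved more. It was 111 for the mutation with the Hnrnph2 ASO, 16 with the covariate, 23 in a fit of the compared groups alone and 21 to 303 with single libraries left out; 21 came without replicate 2 of P209L with the Hnrnph2 ASO at 3 weeks and 303 without replicate 3 of WT with that ASO at 3 weeks in the P209L cohort. For the ASO in WT it was 31, with 53 under the replicate block and 20 in the compared groups alone, and for the ASO in mutants 414, with at most 561 when single libraries were left out and at fewest 50.5% of the 414, without replicate 2 of P209L with the Hnrnph2 ASO at 3 weeks. Where 1 of the 2 P209L libraries with the Hnrnph2 ASO at 3 weeks was left out, the lone sample was assumed to vary like the other groups. In 0 of 16 group pairs did every same-numbered pair of libraries correlate over 0.1 (range -0.197 to 0.318), and the main fit did not pair them. Yet same-numbered libraries correlated best in 3 of 3 cases for the ASO in WT in both 3-week cohorts. The same held for the mutation with the Hnrnph2 ASO in the R206W cohort. For the mutation with the control ASO they did so in 0 of 3 cases in each P209L cohort. Whether the numbers mark pairs in part of the groups was not tested. The replicate block changed 1 call of a member, Ppm1a with age (-0.144, adjusted p 0.0479). The difference of the ASO effect uses all 12 groups, so no fit of compared groups alone exists for it. Without read totals, counting error of low members such as Ppm1j is unknown.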
